A study of Saccharomyces cerevisiae with 16 samples.

Results

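The arrays described here followed budding yeast without the transcription factors Msn2 and Msn4, 30 min after a shift to alkaline medium. The group was chosen by its sample description and holds 4 of the 16 arrays of the series. Its strain is MCY5278, which carries msn2::kanMX4 and msn4::hphMX4 in the W303-1A background, so that a drug resistance cassette interrupts each gene. Exponential cultures in YPD, a rich medium, received either KOH or KCl to 20 mM, and the design text gives pH 8 for the KOH cultures. KCl brings the same potassium without the base. Each array compared KOH RNA with KCl RNA of the same strain and time in 2 dyes, and arrays 1 and 4 had the KOH RNA in Cy3, arrays 2 and 3 in Cy5. Comparison groups were wild type W303-1A at 30 min and MCY5278 at 10 min, with 4 arrays each and the same treatments. The 4 arrays of wild type at 10 min entered only the estimates of the spread and of the dye effect, which also moves the mean of a gene measured on 3 arrays. The labels name 1 mutant strain, so every value below comes from that strain.

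Msn2 and Msn4 are related activators that enter the nucleus under stress and bind the stress response element (STRE) in promoters, and protein kinase A (PKA) holds them in the cytoplasm of well-fed cells. Alkaline medium weakens the proton gradient that drives nutrient uptake, makes phosphate, iron and copper harder to take up, and lets calcium into the cytosol, where it activates the phosphatase calcineurin and through it the transcription factor Crz1. Yeast answers with sodium pumps, high-affinity transporters, cell wall synthesis and less ribosome production. The mutant asks which of these changes occur without Msn2 and Msn4.

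Each value is a log2 ratio, KOH over KCl, from an array centred on its median. Base 2 and this direction are likely rather than stated in the sources (the direction follows the order in which the design text names the samples), so fold sizes hold only if the base is 2. Arrays 1 to 4 held values for 4184, 4350, 4039 and 5443 of the 6174 features. A gene was tested where at least 3 of the 4 arrays had a value, which left 4234 genes: 3367 on 4 arrays and 867 on 3. Another 1374 features had values on 1 or 2 arrays and 566 on none. The threshold was an adjusted p below 0.05, from limma with Benjamini-Hochberg adjustment over all genes tested. The ± sign gives the standard error from the model, for 4 arrays unless another n is stated.

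The 4 arrays stood in 2 pairs. Across genes, array 1 correlated with array 2 at r = 0.865 and array 3 with array 4 at r = 0.857, whereas pairs across these lay between 0.542 and 0.643. Both close pairs hold opposite dyes. The design text states 2 biological replicates with a dye swap, but the labels do not say which arrays share an extract. P-values over 4 arrays are too small where they do. Counts are therefore also given for an averaged fit, in which arrays 1 and 2 were averaged and arrays 3 and 4 were averaged in every group. This pairing was chosen after the correlations were seen. The log ratio also followed coding length (start to stop codon, introns included) on arrays 1 and 2, with Spearman's rho across genes of 0.388 and 0.404, and not on arrays 3 and 4, with -0.0108 and 0.0217. On array 1 the median log ratio ran from -0.46 for genes up to 500 bases to 0.79 for genes over 4000 bases. On array 4 it ran from -0.04 to 0.25 over the same classes.

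**Figure D1:**
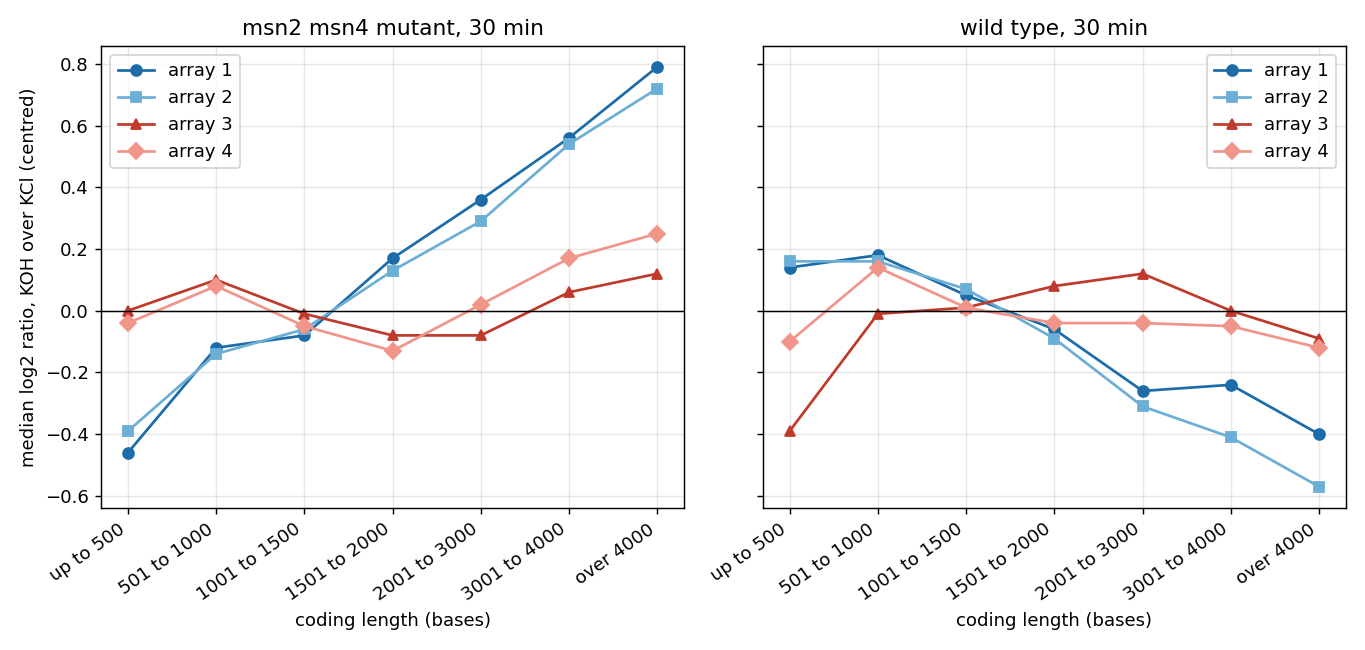
Median centred log2 ratio (KOH over KCl, vertical axis) of genes in 7 classes of coding length (horizontal axis), one line per array, for the mutant and wild type at 30 min. Arrays 1 and 2 rose with length in the mutant, from -0.46 and -0.39 to 0.79 and 0.72, and fell with length in wild type, from 0.14 and 0.16 to -0.40 and -0.57.

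The deleted genes cannot be checked for their level here, because a ratio of KOH over KCl within the mutant does not measure how much RNA either channel held. MSN2 read -0.49, -0.03, 0.31 and -0.03 on arrays 1 to 4, with a mean of -0.06 ± 0.14 and an adjusted p of 0.741. MSN4 read -0.36 and -0.13 on arrays 1 and 2 and -0.46 on array 4, with a mean of -0.27 ± 0.13 (n = 3) and an adjusted p of 0.119. Neither passed. Markers of cell type were few. In bulk cultures such ratios do not tell less RNA per cell from fewer cells that hold it. BAR1, a protease of MATa cells, rose by 0.76 ± 0.17 (adjusted p = 0.0053) and was the only one of 3 tested MATa markers that passed. It did not pass in the averaged fit (adjusted p = 0.0676 in limma). None of 2 MATalpha markers passed. Of 4 tested sporulation markers 1 passed, SPS4, with -0.94 ± 0.16 (adjusted p = 0.000219).

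In the mutant at 30 min, 932 genes rose, which is 22.0% of those tested, and 810 fell, which is 19.1%. In the averaged fit 372 rose and 370 fell. When values on at least 2 arrays were enough, 955 of 4718 genes rose and 973 fell, so which direction held more genes depended on the filter. Where the shares of a gene list below lie near 22.0% and 19.1%, its counts describe the members and do not set the list apart. The median over all genes tested was 0.02. At least a 2-fold change was reached by 215 genes that rose and 290 that fell. Of the 1742 genes that passed, 1622 had one sign on every measured array. All of the 15 largest rises and 15 largest falls with one sign on every array also passed in the averaged fit. They were picked for passing, for size and for sign on the same arrays, which favours that result.

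The largest rise belonged to PHO89, a sodium-phosphate cotransporter that works at alkaline pH. It read 4.67, 4.28, 4.39 and 3.96 on arrays 1 to 4, a mean of 4.32 ± 0.20 (adjusted p = 5.2e-10). SNZ1, an enzyme of vitamin B6 synthesis, read 4.78, 4.78, 3.90 and 3.57, a mean of 4.25 ± 0.20. BOP2, whose function is not established, read 4.24, 3.96, 4.13 and 4.03, a mean of 4.09 ± 0.22. All 4 arrays were far above 0 for each of these genes, with arrays 3 and 4 lower than arrays 1 and 2 for SNZ1. CIT2, the peroxisomal citrate synthase and the usual reporter of mitochondrial retrograde signalling, was nearly the same on every array, at 3.33, 3.38, 3.43 and 3.35, a mean of 3.37 ± 0.14 and a 10.3-fold rise. GSC2, also known as FKS2, the stress-induced subunit of the cell wall glucan synthase, read 3.71, 3.82, 3.26 and 2.66, a mean of 3.36 ± 0.22. NCE103, the carbonic anhydrase that hydrates carbon dioxide to bicarbonate, split by pair: 2.31 and 2.75 on arrays 1 and 2, and 4.35 and 3.84 on arrays 3 and 4, with a mean of 3.31 ± 0.22. ENA2, a P-type ATPase that pumps sodium out of the cell, read 3.14, 2.86, 2.43 and 2.66, a mean of 2.77 ± 0.15.

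Behind these came the vacuolar proteinase PRB1 (2.70 ± 0.18), the plasma membrane protein gene PUN1 (2.67 ± 0.25), the methyltransferase gene TMT1 (2.44 ± 0.29) and the pyruvate carboxylase gene PYC1 (2.39 ± 0.16). TMT1 was split by pair like NCE103, with 1.53 and 1.76 on arrays 1 and 2 and 3.34 and 3.12 on arrays 3 and 4. The vacuolar carboxypeptidase gene CPS1, the retrograde target DLD3, the serine synthesis gene SER3 and THI3, a regulator of thiamine genes, lay between 2.26 and 2.32. In wild type at 30 min these 15 genes lay between 1.65 and 4.69, and the strain difference passed for none of them (adjusted p of 0.0695 or more).

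**Figure D2:**
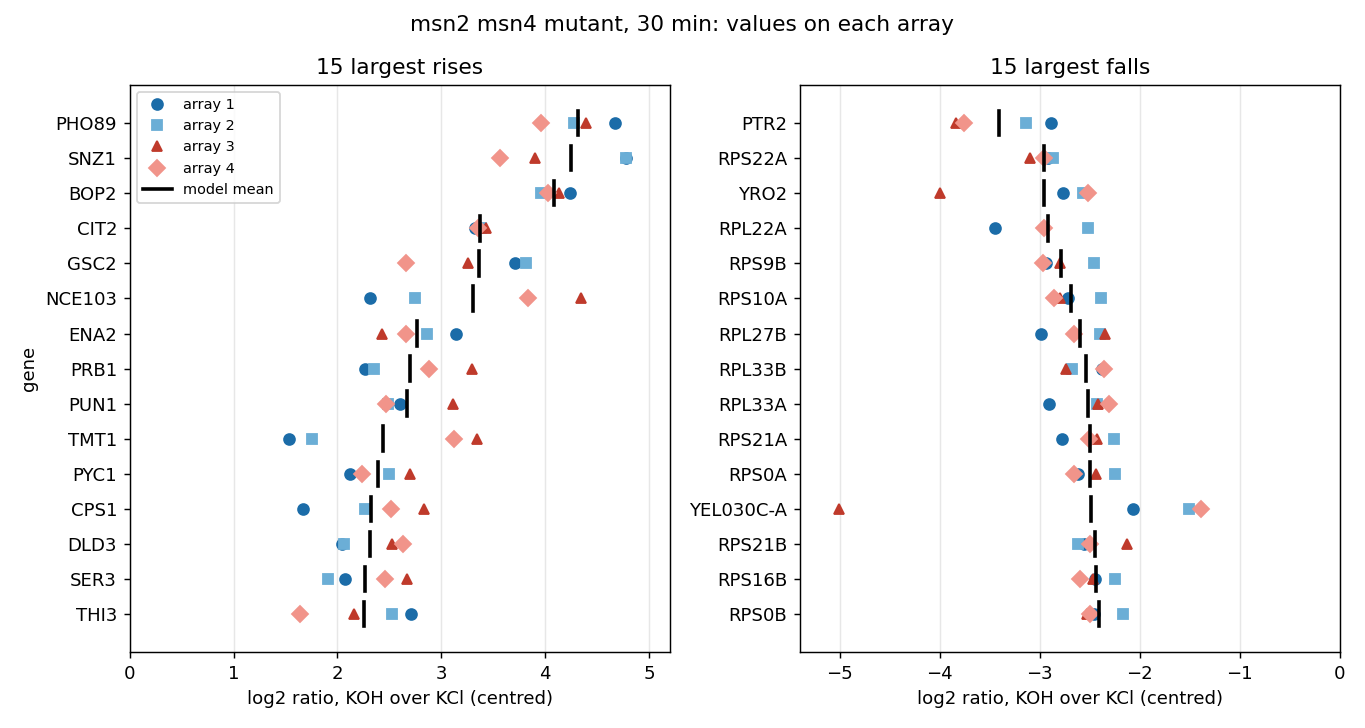
Centred log2 ratio (KOH over KCl, horizontal axis) of the 15 largest rises and 15 largest falls in the mutant at 30 min. Each symbol is 1 array and the bar is the model mean. PHO89, SNZ1 and BOP2 lie near 4 on all arrays, and PTR2 lies below -2.8 on all.

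The falls were led by PTR2, the transporter of small peptides, which read -2.89, -3.14, -3.84 and -3.76, a mean of -3.41 ± 0.20 and a 10.6-fold fall. Of the next 14, 12 encode cytosolic ribosomal proteins. RPS22A, the second on the list, read -2.92, -2.87, -3.10 and -2.96. The others were YRO2, a membrane protein gene, and YEL030C-A, a feature without a gene name here. YRO2 read -2.77, -2.57, -4.00 and -2.52, so that array 3 was lowest. YEL030C-A also was lowest on array 3, at -5.01 against -2.07, -1.51 and -1.39, and its mean of -2.49 ± 0.49 leans on that array.

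Targets of the calcineurin pathway were high in the mutant. Of 13 tested Crz1 targets 12 rose and none fell, against 11 and none in the averaged fit, and their median was 1.59 against 0.02 over all genes. PHO89, GSC2 and PUN1 led. CRH1, a cell wall transglycosylase, followed at 1.93 ± 0.18. RCN2, a calcineurin regulator, read 1.27, 1.20, 2.38 and 2.40, a mean of 1.81 ± 0.20. CMK2, a calmodulin-dependent kinase, read 1.13, 0.94, 2.14 and 2.24, a mean of 1.61 ± 0.20. Both were about 1 log2 unit higher on arrays 3 and 4 than on 1 and 2, and positive on all. In wild type at 30 min the median of these 13 genes was 1.38, and the strain difference passed for none.

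Among 13 genes of calcium transport and calmodulin signalling, 7 rose and 2 fell, against 6 and none in the averaged fit. PMC1, the vacuolar calcium pump, read 1.26, 1.43, 1.22 and 1.21, a mean of 1.28 ± 0.13. PMR1, the calcium pump of the Golgi, rose by 0.98 ± 0.16, and RCN1, the other calcineurin regulator, by 1.00 ± 0.19. The members that fell were CNA1, a catalytic subunit of calcineurin, at -0.54 ± 0.14, and MID1, a subunit of the plasma membrane calcium channel, at -0.53 ± 0.18. MID1 read 0.09 and -0.14 on arrays 1 and 2 and -1.20 and -0.86 on arrays 3 and 4.

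Of 8 tested genes of sodium and potassium transport, 3 rose and none fell, and only 1 rose in the averaged fit. Beside ENA2 these were HAL5, a kinase that stabilises potassium transporters, at 0.60 ± 0.22, and SIS2 at 0.38 ± 0.12. ENA1 had a value only on array 4, 0.68, and was not tested. ENA1 and ENA2 are nearly identical in sequence, so their probes may not tell them apart.

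Of 16 tested members of the PHO regulon 10 rose, none fell and 6 did not pass (9 rose and none fell in the averaged fit), with a median of 0.88. Without arrays 3 and 4, 7 rose and 1 fell. After PHO89, which Crz1 also drives, came PHO8, the vacuolar alkaline phosphatase, at 1.37 ± 0.14. SPL2, which restrains low-affinity phosphate transport, read 0.74, 0.78, 1.94 and 1.82, a mean of 1.32 ± 0.27. PHO84, the high-affinity phosphate transporter, read 0.94, 1.11, 1.58 and 1.23, a mean of 1.21 ± 0.18 (adjusted p = 5.12e-05). GDE1 (1.13 ± 0.19) and VTC2 (1.09 ± 0.24), which handle glycerophosphodiesters and polyphosphate, were of similar size. The median of the same 16 genes in wild type at 30 min was 0.46.

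Iron uptake followed the same direction, with 9 of 16 Aft1 targets higher and none lower (7 and none in the averaged fit) and a median of 0.74. HMX1, the haem oxygenase, read 1.77, 1.97, 2.37 and 2.27, a mean of 2.10 ± 0.15. FRE1, the surface reductase for iron and copper, read 1.33, 1.39, 1.67 and 1.50, a mean of 1.47 ± 0.15. CCC2, which loads copper into the iron oxidase, rose by 1.25 ± 0.19. The oxidase FET3 read 0.26, 0.60, 2.01 and 1.43, a mean of 1.08 ± 0.21, and its partner permease FTR1 rose by 1.00 ± 0.20.

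Of 6 copper genes, 3 rose and 1 fell, and in the averaged fit 1 went each way. The transporters CTR2 (0.94 ± 0.25) and CTR1 (0.49 ± 0.13) rose beside FRE1, whereas the metallothionein CUP1-1, which binds excess copper, fell by 1.19 on the log2 scale, with a standard error of 0.18. Among 10 zinc genes 5 rose and 2 fell (3 and 1 in the averaged fit). ZRT1, the high-affinity zinc transporter, read 2.43, 1.91, 1.07 and 1.09, a mean of 1.62 ± 0.23. ZAP1, the activator of these genes, read 2.12 and 1.84 on arrays 1 and 2 but 0.20 and 0.22 on arrays 3 and 4, a mean of 1.09 ± 0.31. The members that fell were ZPS1, at -1.74 ± 0.17 (n = 3), and the vacuolar zinc transporter ZRC1, at -0.63 ± 0.12.

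Genes known as Msn2 and Msn4 targets moved both ways in the strain that lacks these factors. Of 39 tested, 11 rose, 6 fell and 22 did not pass, near the shares of 22.0% and 19.1% over all genes, and the median was 0.16. In the averaged fit 7 rose and 2 fell. AMS1, the vacuolar mannosidase, read 2.07, 1.96, 1.95 and 1.69, a mean of 1.92 ± 0.20, and the next were MSC1 (1.21 ± 0.14) and the glycogen debranching enzyme GDB1 (1.12 ± 0.17). GDB1, with a coding length of 4611 bases, read 1.49 and 1.60 on arrays 1 and 2 and 0.51 and 0.86 on arrays 3 and 4. The glycogen synthase GSY1 read -1.15, -0.95, -1.69 and -1.63, a mean of -1.36 ± 0.25, and the wall-related glycoprotein gene YGP1 fell to -1.04 ± 0.13. CTT1, the cytosolic catalase, read -0.78, -0.32, -0.36 and -0.66, a mean of -0.53 ± 0.15 (adjusted p = 0.00893), below 0 on every array. CTT1 did not pass in the averaged fit (adjusted p = 0.107 in limma). HSP12, a small membrane-protecting protein, read -0.20, -0.21, 0.63 and 0.42, a mean of 0.16 ± 0.19, and did not pass (adjusted p = 0.526).

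For the 30 STRE genes tested in both strains the median was 0.19 in the mutant and 0.53 in wild type, and the median of the differences was -0.39, against -0.05 over all genes. A strain difference passed for 1 of the 30, GCY1, a glycerol dehydrogenase gene, at -0.88 ± 0.17 (adjusted p = 0.035), and for none in the averaged fit. CTT1 stood at 0.19 in wild type and differed by -0.72 (adjusted p = 0.0695), and GSY1 stood at 0.06 and differed by -1.42 (adjusted p = 0.0592).

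Of 9 trehalose and UDP-glucose genes 5 rose and none fell, although only 2 did so in the averaged fit. TPS1, the trehalose phosphate synthase, read 0.44, 0.61, 1.29 and 1.22, a mean of 0.89 ± 0.14. TPS3, a regulatory subunit, read 0.50, 0.65, 0.53 and 0.72, a mean of 0.60 ± 0.12. Of 11 glycogen genes 2 rose and 4 fell (1 and 3 in the averaged fit). The genes that fell encode a synthase and its helpers: GSY1, the primer GLG1 (-1.03 ± 0.22), and the phosphatase subunits GIP2 (-1.50 ± 0.29, n = 3) and GAC1 (-1.05 ± 0.29). GAC1 read -0.04 and -0.26 on arrays 1 and 2 against -1.87 and -2.01 on arrays 3 and 4.

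Of 13 hexose transport genes 3 rose and 4 fell (2 and 2 in the averaged fit), beside 22.0% and 19.1% over all genes. HXT2, induced when glucose is low, read 0.98, 1.08, 1.59 and 1.48, a mean of 1.28 ± 0.24, and HXT5 read 4.04, 2.35, 1.12 and 1.32, a mean of 2.21 ± 0.38. The transporters of glucose-rich medium HXT3 (-0.97 ± 0.20) and HXT1 (-0.95 ± 0.32) fell, as did HXT4 (-1.25 ± 0.20). HXT6 and HXT7 are nearly identical and their probes may share signal. HXT6 read 0.01, 0.46, 2.18 and 2.05, a mean of 1.17 ± 0.38, and HXT7 read -1.08, -1.0, -0.11 and -0.11, a mean of -0.58 ± 0.18. Each leaned on 1 pair of arrays, and neither passed in the averaged fit (adjusted p of 0.0997 and 0.143 in limma). Of 14 genes for carbon sources other than glucose 5 rose and 1 fell (3 and 1 in the averaged fit). ACS1, the acetyl-CoA synthetase, rose by 1.70 ± 0.27, ALD4, the mitochondrial aldehyde dehydrogenase, by 1.62 ± 0.22 and the activator ADR1 by 1.23 ± 0.24. ADR1, with a coding length of 3972 bases, read 2.14 and 1.60 on arrays 1 and 2 and 0.73 and 0.44 on arrays 3 and 4. SUC2, the invertase, was the member that fell, at -0.79 ± 0.22 (n = 3).

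Of 19 glycolytic and fermentation genes, 3 rose and 3 fell (1 and 2 in the averaged fit). The phosphofructokinase subunits PFK1 (0.60 ± 0.15) and PFK2 (0.57 ± 0.16) rose, but neither passed in the averaged fit (adjusted p of 0.102 and 0.129 in limma), and the pyruvate decarboxylase isozymes PDC6 (-1.28 ± 0.27) and PDC5 (-0.81 ± 0.16) fell. In the TCA cycle 6 of 17 genes rose and 4 fell (3 and 3 in the averaged fit). The early enzymes CIT1 (1.05 ± 0.18), CIT3 (1.09 ± 0.18, n = 3) and IDH1 (1.01 ± 0.23, n = 3) were higher, and the succinate dehydrogenase subunits SDH2 (-1.31 ± 0.26, n = 3) and SDH1 (-0.98 ± 0.15) were lower. Of 26 respiratory chain genes 1 rose, the external NADH dehydrogenase NDE2, at 1.97 ± 0.19, and 5 fell. In the averaged fit none fell. The respiratory list depended on the pair: 12 fell without arrays 3 and 4, and none fell and 5 rose without arrays 1 and 2.

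Genes of amino acid synthesis rose more often than they fell in the mutant. Of 11 arginine genes 9 rose and none fell (8 and none in the averaged fit), with a median of 1.51. ARG56, whose product makes 2 enzymes of the pathway, rose by 2.14 ± 0.29. CPA1, a subunit gene of carbamoyl phosphate synthetase, read 1.71, 1.93, 2.47 and 2.01, a mean of 2.03 ± 0.13. ARG3 (1.96 ± 0.14) and ARG1 (1.86 ± 0.14), which encode later enzymes of the pathway, were of similar size. The wild type values of ARG3 and ARG1 at 30 min were 2.03 and 2.24.

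Of 47 genes for other amino acids 26 rose and 4 fell, against 17 and 2 in the averaged fit. Their medians were 0.04 and 0.21 on arrays 1 and 2 and 0.90 and 0.71 on arrays 3 and 4. Without arrays 1 and 2, 31 rose and 2 fell, and without arrays 3 and 4, 14 rose and 4 fell. After SER3 the largest rises were HIS4 (1.53 ± 0.20), the serine transaminase SER1 (1.31 ± 0.15) and TRP3 (1.29 ± 0.15). ARO9, an aminotransferase that degrades aromatic amino acids, fell to -1.59 ± 0.24, and the chorismate mutase ARO7 to -1.35 ± 0.11. The remaining members that fell were ILV3 and LYS9. In sulphur assimilation and methionine synthesis 14 of 27 genes rose and none fell, although 6 did so in the averaged fit. The sulphate permease SUL1 read 2.58, 2.13, 1.75 and 1.63, a mean of 2.02 ± 0.26, and MET13 (1.76 ± 0.16) and the methionine synthase MET6 (1.66 ± 0.29) followed.

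Of 18 nitrogen genes 8 rose, 2 fell and 8 did not pass (5 rose and none fell in the averaged fit). GDH2, which breaks glutamate down, read 2.07, 2.14, 2.14 and 2.07, a mean of 2.10 ± 0.26, and GLN1, the glutamine synthetase, 1.11, 1.16, 1.62 and 1.32, a mean of 1.30 ± 0.15. GDH1, which makes glutamate, was lower at -0.56 ± 0.12. Among 16 permeases of amino acids and peptides 4 rose (2 in the averaged fit), led by the acidic amino acid permease DIP5 (1.91 ± 0.24) and AGP2 (1.25 ± 0.18), and PTR2 fell. In the vitamin list 4 of 15 rose and 2 fell (4 and 1 in the averaged fit). SNO1, the partner of SNZ1, read 2.04, 2.51, 1.84 and 2.24, a mean of 2.16 ± 0.13, and the biotin transporter VHT1 2.17, 1.83, 2.09 and 2.19, a mean of 2.07 ± 0.15. BIO2, the biotin synthase, was lower at -0.67 ± 0.11.

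Of 29 genes of purine and pyrimidine synthesis 10 rose and 7 fell (5 and 4 in the averaged fit). ADE3 (1.35 ± 0.20) and URA2 (1.02 ± 0.18) rose, and APT1 (-1.25 ± 0.20), URA5 (-1.04 ± 0.16) and PRS1 (-1.02 ± 0.13), which belong to the salvage and phosphoribosyl steps, fell.

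Vacuolar proteases and autophagy genes rose in 10 of 12 cases and none fell (8 and none in the averaged fit), with a median of 0.81. PRB1 read 2.27, 2.35, 3.30 and 2.88. PEP4, the master vacuolar protease, read 0.62, 0.91, 1.87 and 1.56, a mean of 1.24 ± 0.16, so all arrays were positive and the second pair higher. Proteasome genes were less firm: 11 of 32 rose and none fell, led by RPN2 (0.94 ± 0.16), but 1 rose in the averaged fit. Without arrays 1 and 2 the count was 21 up, and without arrays 3 and 4 it was 1 up and 1 down.

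Cell wall and cell integrity genes rose in 19 of 28 cases and fell in 2 (12 and none in the averaged fit), with a median of 0.58. Beyond GSC2 and CRH1 these were the secreted mannoprotein gene HSP150 (1.75 ± 0.25), the surface protease YPS1 (1.60 ± 0.13), the wall protein gene SED1 (1.49 ± 0.15) and SCW10 (1.38 ± 0.16, n = 3). YPS1 read 1.47, 1.65, 1.90 and 1.39. The wall mannoprotein genes CWP2 (-0.56 ± 0.19) and CWP1 (-0.48 ± 0.14) fell.

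Ergosterol synthesis was higher in 10 of 25 genes and lower in 1 (4 and 1 in the averaged fit), with ERG9, the squalene synthase, at 0.92 ± 0.17, HMG1, the sterol pathway's regulated reductase, at 0.86 ± 0.14, and ERG4, the last enzyme, at -0.68 ± 0.13. In the Rim101 pathway, which reads external pH, RIM20 (0.73 ± 0.14), RIM21 (0.68 ± 0.20, n = 3) and RIM101 itself (0.62 ± 0.16) rose. RIM21 read -0.04 on array 1 and 0.89 and 1.02 on arrays 3 and 4. Neither RIM21 nor RIM101 passed in the averaged fit (adjusted p of 0.268 and 0.0886 in limma). NRG1, a repressor gene that Rim101 keeps down, read -0.97, -0.82, -1.19 and -1.05, a mean of -1.01 ± 0.12 (adjusted p = 6.88e-05), below 0 on all arrays. Of 7 tested members of this list 3 rose and 1 fell, against 1 each way in the averaged fit.

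Of 14 genes of Ras, cAMP and PKA, 9 rose and 1 fell (4 and 1 in the averaged fit). PDE1, a phosphodiesterase that degrades cAMP, read 0.78, 0.99, 2.03 and 1.89, a mean of 1.42 ± 0.19. IRA1 (1.15 ± 0.19) and IRA2 (0.79 ± 0.17), which switch Ras off, and GPA2 (0.79 ± 0.15), the G protein of glucose sensing, also rose. The coding lengths of IRA1 and IRA2 are 9279 and 9240 bases, in the class where arrays 1 and 2 were highest. ASC1, a ribosome-bound protein on this list, fell by 1.60 on the log2 scale. Chaperones went down more often than up, with 1 of 20 higher and 10 lower, but none higher and 2 lower in the averaged fit. SIS1 (-0.77 ± 0.15) and HSP10 (-0.77 ± 0.14) fell furthest, and SSE2 was the one that rose (0.62 ± 0.17).

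In the redox list 9 of 25 genes rose and 5 fell (3 and 3 in the averaged fit), with GPX2, a glutathione peroxidase, at 1.22 ± 0.23 and FLR1, a drug exporter, at -1.14 ± 0.25. Glycerol genes rose in 6 of 11 cases and fell in 1, but 1 rose and none fell in the averaged fit. GPP2 (0.84 ± 0.18) and GPP1 (0.68 ± 0.22) encode the phosphatases that release glycerol, and FPS1 (-0.47 ± 0.14) its exit channel. Peroxisome and retrograde genes rose in 4 of 13 cases and fell in 2 (4 and none in the averaged fit), and the other two that rose beside CIT2 and DLD3 were the retrograde factor RTG3 (0.83 ± 0.14) and POT1, the peroxisomal thiolase (0.68 ± 0.15).

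Few proton pump genes passed. Of 19 genes of the vacuolar H+-ATPase 3 rose and 2 fell, both below the shares over all genes, and none passed in the averaged fit. The count was 6 up and none down without arrays 1 and 2, and 1 up and 3 down without arrays 3 and 4. STV1, its Golgi subunit, read 0.42, 0.39, 0.71 and 0.81, a mean of 0.58 ± 0.14, and VMA3, a subunit of the membrane ring, was lower at -0.45 ± 0.16. Of 8 listed genes of the plasma membrane pump 2 were tested and neither passed. PMA1, the pump itself, stood at -0.40 ± 0.20 and did not pass (adjusted p = 0.129). Of 20 genes of fatty acid and phospholipid synthesis 3 rose and 4 fell (1 and 2 in the averaged fit), from ELO3, a fatty acid elongase, at -1.14 ± 0.15 to OPI3, a phospholipid methyltransferase, at 0.80 ± 0.23. Of 18 kinases and regulators that oppose growth or sense nutrients 5 rose and 1 fell (1 and 1 in the averaged fit), among them REG1, a glucose repression factor, at 0.96 ± 0.14. TOR2 read 1.24 and 1.04 on arrays 1 and 2 and 0.12 and 0.18 on arrays 3 and 4, a mean of 0.65 ± 0.18, and -0.03 with the length trend removed.

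Cell cycle genes of G1/S and S phase mostly did not pass: 2 of 31 rose and 5 fell (1 each way in the averaged fit). The G1 cyclins PCL1 (0.91 ± 0.16) and CLN2 (0.57 ± 0.12) were the genes that rose, and the S phase cyclins CLB6 (-1.86 ± 0.52, n = 3) and CLB5 (-0.53 ± 0.14) were among those that fell. No histone gene of 10 passed, and their median was -0.68 on array 1, -0.69 on array 2, 0.15 on array 3 and 0.14 on array 4.

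Every tested gene for a cytosolic ribosomal protein fell. This holds for 75 of 75 genes of the large subunit, with a median of -1.95 and a range from -2.92 to -0.61, and for 48 of 48 of the small subunit, with a median of -2.00 and a range from -2.96 to -0.83. In the averaged fit 73 and 47 fell. The medians on arrays 1 to 4 were -2.16, -1.98, -1.76 and -1.81 for the large subunit, and -2.13, -1.93, -1.85 and -1.96 for the small. The 2 pairs of arrays therefore gave nearly the same size. RPS9B read -2.94, -2.46, -2.80 and -2.97, a mean of -2.79 ± 0.15. RPL33A (-2.52 ± 0.15) and RPL33B (-2.54 ± 0.15), a pair of duplicate genes, were alike, but the probes of such near-identical copies may share signal. In wild type at 30 min the medians were -1.46 and -1.39.

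The rest of the translation machinery fell less. In ribosome assembly 33 of 71 genes fell and 4 rose (20 and 2 in the averaged fit), with a median of -0.51. BRX1, needed for the large subunit, read -2.16, -2.28, -1.25 and -1.23, a mean of -1.73 ± 0.22, and NOP56, a nucleolar protein that guides rRNA methylation, -1.83, -2.13, -1.31 and -1.19, a mean of -1.61 ± 0.22. UTP6 (-1.95 ± 0.41, n = 3) and RLP7 (-1.78 ± 0.27, n = 3) were the lowest. The 4 that rose were NOP12, IMP3, NSA2 and NOP1. Of 20 genes of RNA polymerases I and III, 7 fell and 2 rose (2 and none in the averaged fit), with RPA43 at -1.75 ± 0.26 and RPA135 at -1.34 ± 0.19. Translation factors and tRNA synthetases fell in 20 of 51 cases and rose in none, but 5 fell in the averaged fit. Their count depended on the pair: 26 fell and none rose without arrays 3 and 4, and 6 fell and 2 rose without arrays 1 and 2. The elongation factor YEF3 read -1.64, -1.35, -1.57 and -1.53, a mean of -1.52 ± 0.18. Among 60 genes for mitochondrial ribosomal proteins 27 fell and 2 rose, with a median of -0.38. The averaged fit gave 7 that fell and none that rose. For this list, 27 fell and none rose without arrays 3 and 4, and 12 fell and 6 rose without arrays 1 and 2.

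**Figure D3:**
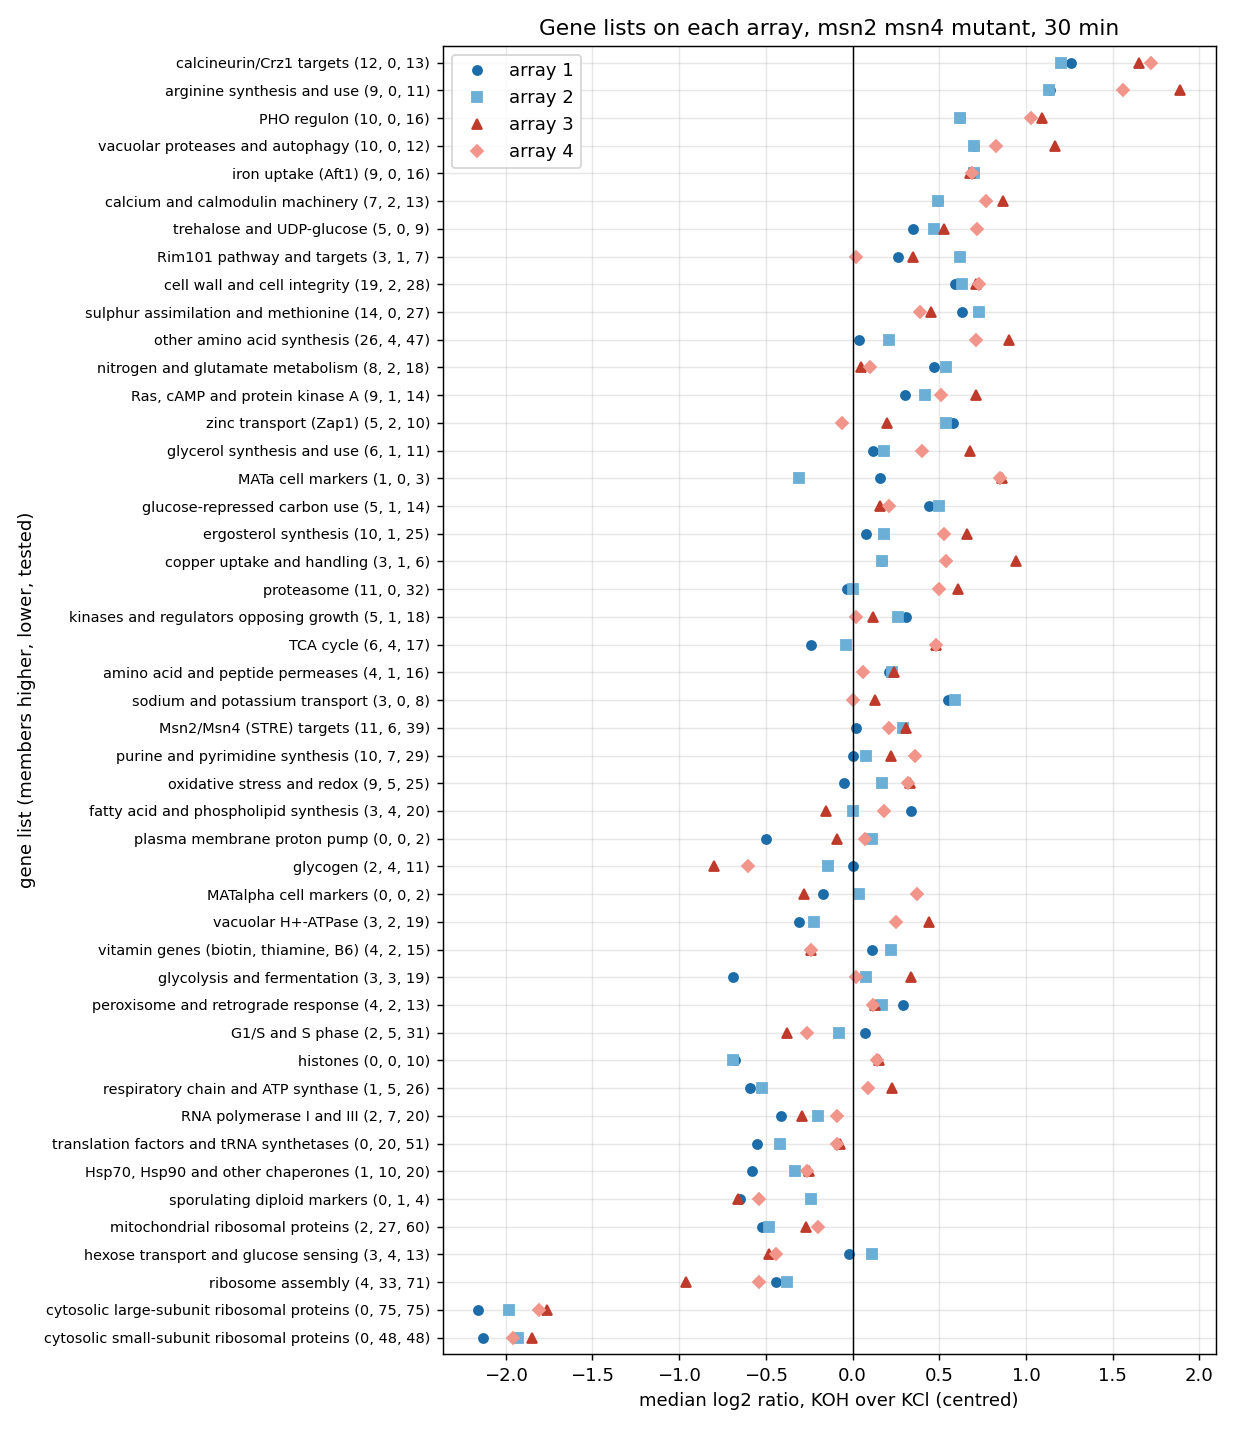
Median centred log2 ratio (KOH over KCl, horizontal axis) of the tested members of each gene list in the mutant at 30 min, with 1 symbol per array; the numbers beside each name are members higher, lower and tested. Both ribosomal protein lists lie near -2 on all 4 arrays, Crz1 targets between 1.20 and 1.72, and histones at -0.68 and -0.69 on arrays 1 and 2 against 0.15 and 0.14 on arrays 3 and 4.

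The pairs of arrays disagreed over other genes. Of the 3367 genes with 4 values, the mean of arrays 1 and 2 and the mean of arrays 3 and 4 had opposite signs in 1081 and were more than 1 apart in 297. Of the 1479 that passed among these, 6 had opposite signs and 101 were more than 1 apart. PAU14, of a large seripauperin family with near-identical copies, read 1.31 and 1.51 on arrays 1 and 2 and -3.41 and -2.84 on arrays 3 and 4, the widest gap of all. HBT1 read 3.51 and 3.42 against 0.14 and 0.78. YGL088W read -0.01 and -0.11 against 2.90 and 2.28, the widest gap the other way. These 3 genes were chosen for their gap after the values were seen.

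**Figure D4:**
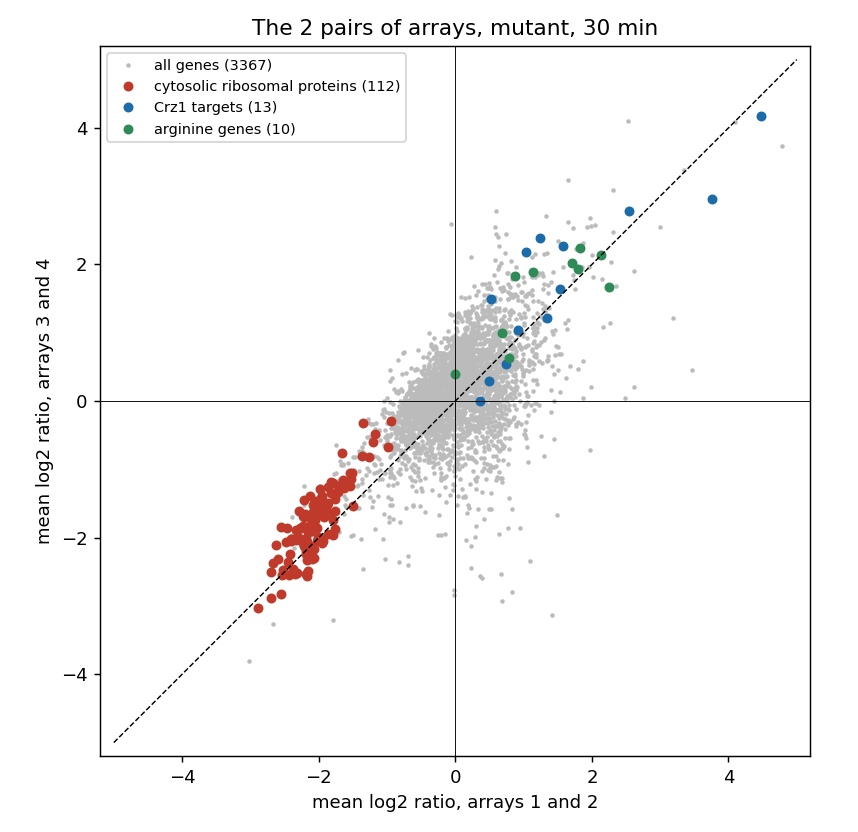
Mean centred log2 ratio of arrays 3 and 4 (vertical axis) against that of arrays 1 and 2 (horizontal axis) in the mutant at 30 min, for the 3367 genes with values on all 4 arrays. Each point is 1 gene; cytosolic ribosomal protein genes, Crz1 targets and arginine genes are marked and have mostly one sign in both pairs, whereas 1081 genes have opposite signs.

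The mutant was set against wild type at the same time to ask where loss of Msn2 and Msn4 changed the response. Across 3978 genes tested in both, the responses correlated at r = 0.821. A strain difference passed for 29 genes that were higher in the mutant, 0.729% of those tested, and for 11 that were lower, 0.277%. The split was 74 and 12 with the values as deposited, uncentred, and 21 and 21 when arrays were centred on the genes measured on all 16. In the averaged fit none passed, in limma as before, although 268 genes had an unadjusted p below 0.05. None passed either when arrays 1 and 2 were left out of both groups (447 genes with an unadjusted p below 0.05) or when array 1 or array 2 of either group was left out alone. The count was 188 higher and 81 lower without array 3 of wild type and 67 higher and 14 lower without its array 4.

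The genes higher in the mutant were long. Their median coding length was 3822 bases, against 1201.5 over all genes tested, and 26 of the 29 exceeded 2000 bases, as do 20.7% of the genes tested. The 11 lower genes had a median of 891. Across genes the strain difference followed length at Spearman's rho of 0.533, with a median difference of -0.23 up to 500 bases and 0.80 over 4000. On arrays 1 and 2 the log ratio rose with length in the mutant and fell with it in wild type (rho of -0.273 and -0.303). With the length trend removed from each array, PHD1 passed as higher and TPO4 as lower and no other gene did. Some differences kept their size without passing: that of PYK2 was then -1.16, and those of ERG11, DED1 and FRE1, for a sterol demethylase, a helicase of translation and the surface reductase, went from 0.79 to 0.78, from 1.06 to 1.00 and from 1.04 to 0.91 (adjusted p from 0.0918 to 0.0954). Beyond this, the part of the length trend in the strain difference was not tested.

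PHD1 encodes a transcription factor of filamentous growth and differed by 1.05 ± 0.17 (adjusted p = 0.0209), and by 1.16 with the length trend removed (adjusted p = 0.0116). TPO4, a polyamine exporter, read -0.61, -0.67, -1.14 and -1.18 in the mutant, a mean of -0.90 ± 0.14, and stood at 0.13 in wild type, a difference of -1.03 ± 0.21 (adjusted p = 0.0408). The largest positive differences were those of USO1 (1.81 ± 0.34), PRP8 (1.52 ± 0.27), NUP188 (1.38 ± 0.22) and TOM1 (1.35 ± 0.23), whose products serve vesicle tethering, splicing, the nuclear pore and ubiquitin ligation. These 4 have coding lengths from 4968 to 9807 bases, and with the length trend removed the differences of USO1, PRP8, NUP188 and TOM1 were 0.77, 0.40, 0.49 and 0.10. The largest negative differences were those of YOR289W (-1.28 ± 0.23), RPL22A (-1.17 ± 0.22), the second pyruvate kinase PYK2 (-1.15 ± 0.23) and RPL25 (-1.12 ± 0.22). PYK2 stood at 0.73 in the mutant and 1.89 in wild type. With the length trend removed these 4 differences were -1.11, -1.0, -1.16 and -1.01, and none passed. Of the ribosomal protein genes of the large and small subunit, 3 of 74 and 1 of 48 passed as lower in the mutant. The medians of the difference were -0.50 and -0.61, against -0.05 over all genes. Ribosomal protein genes are short, with median coding lengths of 815 and 766.5 bases. The length class that holds both of these lengths had a median difference of -0.18. With the length trend removed no ribosomal protein gene passed (adjusted p of 0.0954 or more in limma).

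The 10 min group of the same strain shows how the response moved with time. Of 2934 genes tested at both times, 178 were higher at 30 min, which is 6.07%, and 295 were lower, which is 10.1%. The time difference also followed coding length, at Spearman's rho of 0.314. Median lengths were 1635 bases for the higher genes and 933 for the lower, against 1191 over all genes tested. With the length trend removed the counts were 173 and 293 of 2823 genes. The split was 201 and 170 with quantile normalization. In the averaged fit the counts were 48 and 122. Its pairs did not stand apart in the mutant at 10 min: arrays 1 and 4, of the same dye, correlated at r = 0.848. Arrays 1 and 2 stood at 0.842 there and arrays 3 and 4 at 0.808. Without array 2, 3 or 4 of the 10 min group the genes higher at 30 min numbered 115, 117 or 89. The log ratios of the 2 times correlated at r = 0.69 across genes. Of the 20 largest differences 19 passed in the averaged fit. They were picked among passing genes whose groups did not overlap on the same arrays, which favours that result.

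Crz1 targets had come down from 10 min. Of 12 tested at both times 8 were lower at 30 min and 2 were higher (6 and 1 in the averaged fit), and the median went from 2.75 to 1.60. CMK2 stood at 4.60 at 10 min and 1.61 at 30 min, a difference of -2.99 (adjusted p = 1.71e-06). RCN2 went from 3.70 to 1.81 and PUN1 from 4.39 to 2.67. GSC2 and CRH1, both enzymes of cell wall polymers, went the other way, from 2.11 to 3.36 and from 0.76 to 1.93. Other large differences downwards were those of YOR385W (-2.89), the hexose transporter HXT2 (-2.72), the ammonium permease MEP1 (-2.66) and BTN2 (-2.57), and that of PTR2 was -2.51. HXT2 had stood at 4.00 and MEP1 at 3.31 at 10 min.

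Ribosomal protein genes deepened their fall. At 30 min 64 of 71 genes of the large subunit and 43 of 46 of the small were lower than at 10 min (35 and 25 in the averaged fit), and the medians went from -0.87 to -1.95 and from -0.85 to -2.00. RPS22A went from -1.12 to -2.96. Ribosome assembly genes moved the opposite way, with 10 of 59 higher at 30 min and none lower (6 and none in the averaged fit), and a median that went from -0.95 to -0.53.

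Several transporter and biosynthetic genes were higher at 30 min. FRE1 went from -0.93 to 1.47, a difference of 2.41 ± 0.21 (adjusted p = 9e-07). ZRT1 went from -0.61 to 1.62, a difference of 2.23. PHO84 went from -0.64 to 1.21, a difference of 1.85 (adjusted p = 5.04e-05). For each of these 3 genes, named for their large difference, the mean was below 0 at 10 min and above 0 at 30 min. SER3 went from 0.27 to 2.27 and SNZ1 from 2.48 to 4.25. Of 14 PHO genes 5 were higher at 30 min and none lower, although 1 was in the averaged fit. Of 26 cell wall genes 10 were higher and 2 lower, and in the averaged fit 2 and 1. CIT2 stood at 3.37 at both times.

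**Figure D5:**
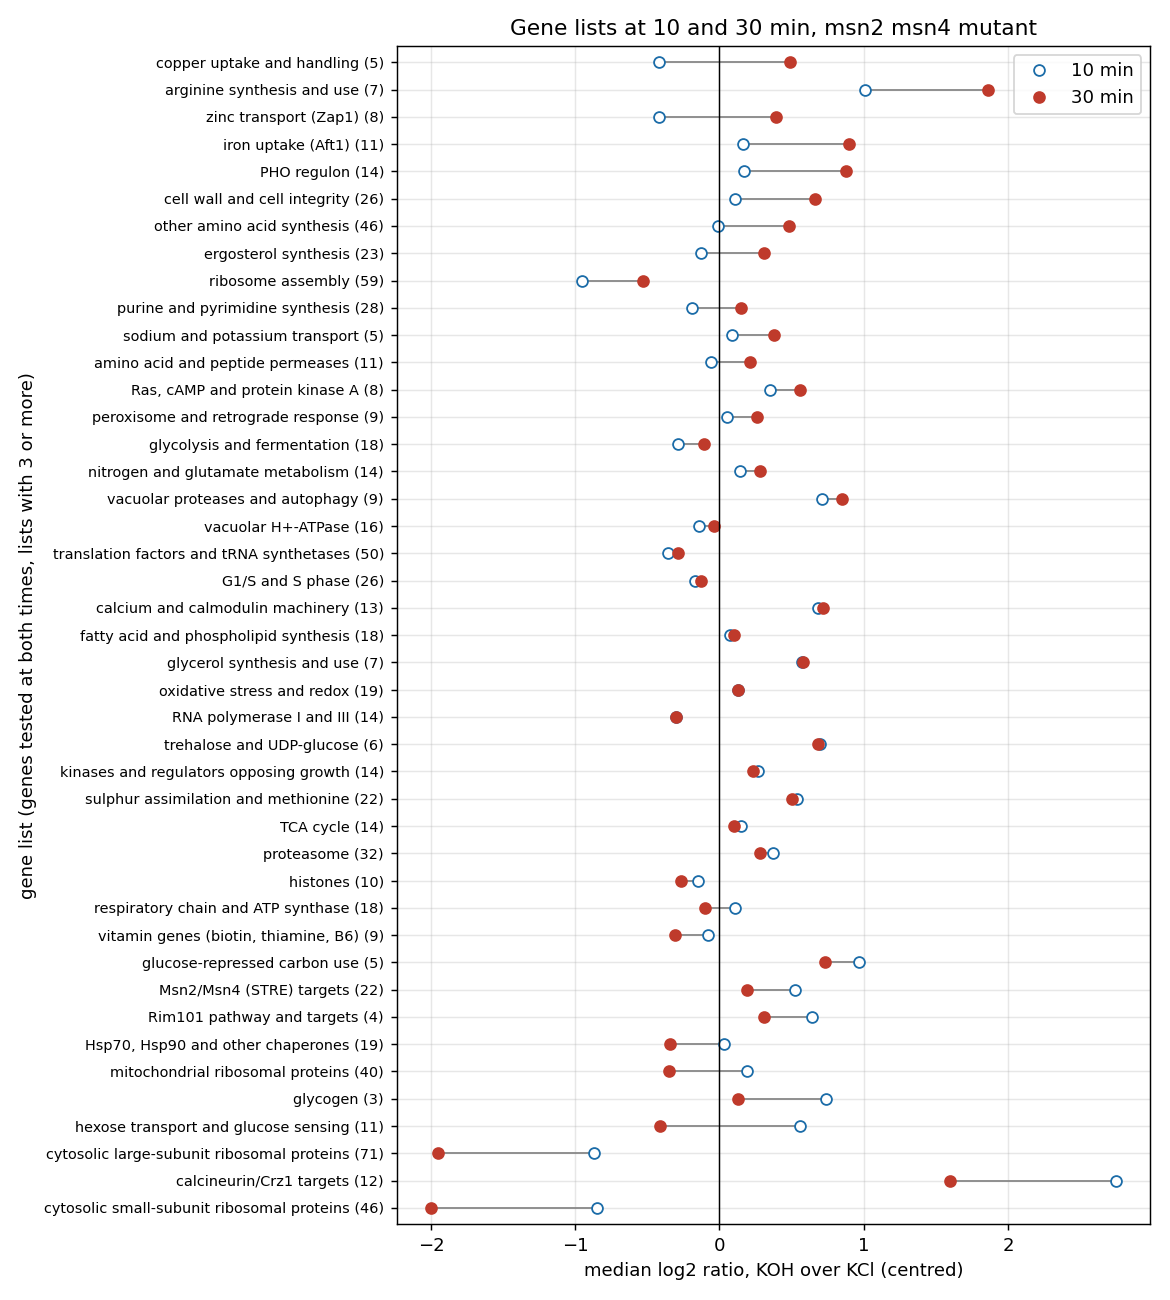
Median log2 ratio (KOH over KCl, horizontal axis) of the members of each gene list tested at both times in the mutant, at 10 min (open circle) and 30 min (filled circle). Crz1 targets moved from 2.75 to 1.60 and the ribosomal protein lists from -0.87 to -1.95 and from -0.85 to -2.00.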

How the data were processed

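The authors deposited 1 log ratio per feature and array, read here as log2 of KOH over KCl. The base and the direction are likely rather than stated. The scanner, how background was corrected, the normalization and why cells are empty were not given in the sources used here. Per the labels' protocols, cDNA was primed with oligo(dT) and dyed indirectly. Gene names came from a RefSeq table by systematic name, which matched 5675 of 6174 features.

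Arrays were centred on their medians, which were 0.001 to 0.035 in the mutant at 30 min. In the mutant at 10 min the medians ran from -0.285, on array 1, to 0.002, and array 1 there held 2073 values. With the values as deposited, uncentred, 229 genes were higher and 256 lower at 30 min than at 10 min in the mutant. A model in limma 3.58.1 (R 4.3.3) with a mean for each group and a dye effect used all 16 arrays. The dye of the KOH channel was taken from the labels. The model was tested on simulated data with independent arrays and no length trend, so that test does not cover the pairs of arrays or the trend. Tests were two-sided, and p-values were adjusted by the Benjamini-Hochberg method across all genes tested in a comparison. A gene needed values on at least 3 arrays of each group compared. The number of arrays limits the precision. Nothing in the labels says that arrays come from separate cultures, so p-values measure the spread between arrays.

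The group, the 47 gene lists (some genes stand on several) and the tests were chosen with earlier results of these data known, so lists are described by counts and medians and not tested. Named genes follow a rule: the 15 largest rises and falls with one sign on every measured array, the 10 largest each way per difference, the 6 largest members that passed per list and all members where 5 or fewer moved in a direction, always ENA1, CTT1, HSP12, PHO84 and the deleted genes, and fewer where space required, so many genes of the rule are not named. One gene was left out and is not reported here. ERG11, DED1 and the strain difference of FRE1 were added for their values with the length trend removed. PMA1 and the genes named for a gap between pairs of arrays stand outside it. Alternatives left out the dye term, the centring, single arrays or slides of the smaller number series, changed the normalization, the filter and the weights, and averaged arrays of opposite dye.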

Additional observations from a re-analysis of the deposited data

Results flagged for a closer look

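On 4 of 167 named genes with values on all 4 arrays of the mutant at 30 min, 1 array stood apart from the other 3 by Dixon's criterion. Chance gives about 1 in 20. GLG1 read -2.32 on array 3, against -0.75 to -0.51 on the others. PDC6 read -2.70 on array 3, against -0.86 to -0.75, and YRO2 read -4.00 on array 3, against -2.77 to -2.52. RIM20 read 0.81 on array 4, against 0.69 to 0.71. Among the 47 lists 1 median stood apart, that of amino acid and peptide permeases, at 0.06 on array 4 against 0.21 to 0.24.

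The response differed between the strains at 30 min, by the test of the difference, in 29 genes that were higher in the mutant and 11 that were lower. The differences of named genes were 1.81 for USO1, 1.52 for PRP8, 1.38 for NUP188, 1.35 for TOM1, 1.06 for DED1, 1.05 for PHD1, 1.04 for FRE1 and 0.79 for ERG11. They were -1.28 for YOR289W, -1.17 for RPL22A, -1.15 for PYK2, -1.12 for RPL25, -1.03 for TPO4 and -0.88 for GCY1. Coding length and the pair of arrays moved with this difference, and their part in it was not tested beyond the values given above.

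Between 10 and 30 min in the mutant the response differed in 178 genes that were higher at 30 min and 295 that were lower. Positive differences were 2.41 for FRE1, 2.23 for ZRT1, 2.01 for SER3, 1.85 for PHO84, 1.78 for SNZ1, 1.25 for GSC2 and 1.17 for CRH1. Negative ones were -2.99 for CMK2, -2.89 for YOR385W, -2.72 for HXT2, -2.66 for MEP1, -2.57 for BTN2, -2.51 for PTR2, -1.89 for RCN2, -1.84 for RPS22A and -1.72 for PUN1.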

How the results depend on the processing

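In the mutant at 30 min the counts of 932 higher and 810 lower genes became 418 and 392 when only its own arrays were fitted, 525 higher with slides of the larger number series only, and 215 and 290 with a 2-fold minimum. Over the 16 ways of averaging arrays of opposite dye the lowest counts were 372 and 370, those of arrays 1 with 2 and 3 with 4. With an array left out they ranged from 695 to 830 and from 639 to 742. The strain difference of 29 and 11 genes became 0 and 0 with only the arrays compared (673 genes had an unadjusted p below 0.05 in limma, and likewise in brackets below), in the averaged fit (268), without arrays 1 and 2 of both groups (447), and without array 1 or 2 of the mutant (666, 659) or of wild type (529, 470). It became 1 and 1 with the length trend removed, 5 and 0 in the larger number series, 74 and 12 as deposited, 19 and 7 with scale normalization, 66 and 32 with quantile normalization, 78 and 38 with values on all 4 arrays and 284 and 179 with array weights. It was 21 and 21 when centred on genes measured on all 16 arrays, 19 and 6 with a 2-fold minimum, 117 and 49 at most over the pairings, and ranged from 0 to 188 and from 0 to 81 with an array left out. The time difference of 178 and 295 genes became 48 and 122 at the lowest and 300 higher at the highest pairing, 201 and 170 with quantile normalization, 282 higher with array weights, 66 higher in the larger number series, and 75 and 164 with a 2-fold minimum. It ranged from 89 to 175 and from 237 to 293 with an array left out. The causes of these moves were not tested, apart from the fewer arrays or the minimum itself. The length trend, the averaged fit, the pairs of arrays left out and the centring on common genes were chosen after seeing the data. Array 4 of each group carries a slide number of another series, and with the series as a block the counts were 788 and 694, 24 and 11, and 194 and 303. The naming rule gave 270 genes for the mutant at 30 min, not all of them named here. Of these, 153 kept direction and call under every alternative in which they were tested. TOR2 was the 1 that turned, to -0.03, with the length trend removed. Of 20 genes that the rule gave for the strain difference none kept its call throughout, and of 20 for time 19 did. A gene that an alternative left untested was not counted as a lost call there. No paired analysis was possible because the labels give the arrays no replicate numbers that link one group to another. The averaging above joins arrays within a group.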
